A study of Rattus norvegicus and Mus musculus with 25 samples.

Results

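The atrial identity genes are 9 genes that heart biologists use to tell atrial from ventricular muscle: Myl7, Myl4, Sln, Nppa, Pam, Gja5, Bmp10, Nr2f1 and Nr2f2. They were found by symbol, and each gave 1 row in the rat tables (28905 rows each) and 1 row in the mouse table (54083 rows). All 9 could be tested in 6 of the 7 comparisons, and 8 could be tested in the comparison of si-Thbs1 with its control, where Bmp10 lay below the filter on low values. No treatment or genotype gave an adjusted p under 0.05 for any of the 9 genes. The widest differences in value lay between mouse genotypes: 8 of the 9 genes averaged higher on the log2 scale in Myh6-Cre;Vldlr f/+ cardiomyocytes than in Vldlr f/f cardiomyocytes, with a median log2 difference of 1.05.

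Atrial and ventricular cardiomyocytes share most of the contractile machinery but use different myosin light chains, ion channels and secreted peptides. Atrial cells make the light chains MYL7 and MYL4, while ventricular cells make MYL2 and MYL3 after birth, and the orphan nuclear receptors NR2F1 and NR2F2 help to set the atrial programme in mouse. Several of these genes are not confined to atria: fetal and stressed ventricles also make Nppa and Myl4, trabeculae and arterial endothelium make Gja5, and venous endothelium makes Nr2f2.

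The study, by its title, asks how Reelin and thrombospondin-1, both secreted proteins, act on cardiomyocyte proliferation through the receptor Vldlr. In rat, ventricles of 1-day-old SD animals were digested, pre-plated to deplete cells that attach fast, and cultured in 8 groups of 2 libraries. si-Vldlr and si-Thbs1 cultures were transfected with 50 nM siRNA for 60 h and set against their own si-controls (si-Control_v and si-Control_t). Reelin was given for 48 h against PBS. Vldlr was overexpressed (Vldlr OE) for 72 h from an adeno-associated virus with a cTnT (cardiac troponin T) promoter. Vldlr OE was set against Control cultures, for which the protocol names a GFP virus with a CMV promoter. The columns used as Control are headed Blank and were assigned by elimination, so whether these cultures received that virus is not known. In mouse (C57BL/6), cardiomyocytes of day 1 came in 3 genotypes of 3 libraries: Myh6-Cre;Vldlr f/f (Cre f/f below), Myh6-Cre;Vldlr f/+ (Cre f/+ below) and Vldlr f/f. The Myh6 promoter drives Cre recombinase in cardiomyocytes, f marks a floxed Vldlr copy that Cre can delete, and the third genotype lacks Cre. In both comparisons against Vldlr f/f, the presence of Cre and the loss of Vldlr cannot be told apart. The mouse preparation, and whether atria were left in, are not stated in the labels. The labels do not say whether libraries came from separate cultures or animals, so p-values measure the spread between libraries.

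Values are CPM deposited by the authors, with every library scaled to the same total. The number of reads behind a value is unknown, since the deposited values are spaced in steps that need not be reads. Vldlr itself was at 71.3 to 85.1 CPM in Cre f/f, at 98.4 to 112 CPM in Cre f/+ and at 109 to 195 CPM in Vldlr f/f, so the last pair overlapped. In rat it was at 171 to 183 CPM in si-Vldlr cultures, against 252 to 257 CPM in si-Control_v. It was at 656 to 889 CPM in Vldlr OE against 379 to 577 CPM in Control. Thbs1 was at 546 to 745 CPM in si-Thbs1, against 892 to 943 CPM in si-Control_t. None of these rat groups overlapped with its control. Vldlr was at 364 to 400 CPM with Reelin and at 348 to 371 CPM in PBS cultures, which overlapped. Both species carried cardiomyocyte transcripts, such as Tnnt2 at 2289 CPM or more in each of the 12 rat libraries that were deposited together. The 9 fibroblast markers summed to 33815 CPM or more in those 12 libraries and to 2989 to 5657 CPM in mouse, so fibroblast RNA was present in both. In such bulk samples, fewer cells of a type and less RNA per cell cannot be told apart.

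RefSeq promoters (rat, GRCr8) could be matched for 7 of the 9 genes, all but Sln and Nr2f2. The 250 bases before the start are shown for Nppa, which encodes the main hormone of the atria, and for Myl4 and Myl7, the light chains, whose values lay farthest apart between mouse genotypes by p. The deposited rat values were made on another build, so these coordinates belong to the sequences alone. Capitals mark TATAAA, the core of a TATA box, on either strand (read as TTTATA on the strand shown), and all 3 sequences are printed 5′ to 3′ toward the gene. Nppa lies at chr5:163711934-163712183 (plus strand), Myl4 at chr10:89975900-89976149 (plus strand) and Myl7 at chr14:84996625-84996874 (minus strand).
Nppa: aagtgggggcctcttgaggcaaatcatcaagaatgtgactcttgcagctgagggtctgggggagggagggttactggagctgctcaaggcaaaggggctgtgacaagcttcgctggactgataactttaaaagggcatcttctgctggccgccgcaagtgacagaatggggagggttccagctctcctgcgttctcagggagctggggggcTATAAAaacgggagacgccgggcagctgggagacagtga
Myl4: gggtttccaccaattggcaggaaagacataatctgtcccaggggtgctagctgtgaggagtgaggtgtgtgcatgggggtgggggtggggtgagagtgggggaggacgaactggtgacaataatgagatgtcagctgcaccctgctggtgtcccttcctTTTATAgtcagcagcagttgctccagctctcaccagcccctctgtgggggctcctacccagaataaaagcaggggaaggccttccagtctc
Myl7: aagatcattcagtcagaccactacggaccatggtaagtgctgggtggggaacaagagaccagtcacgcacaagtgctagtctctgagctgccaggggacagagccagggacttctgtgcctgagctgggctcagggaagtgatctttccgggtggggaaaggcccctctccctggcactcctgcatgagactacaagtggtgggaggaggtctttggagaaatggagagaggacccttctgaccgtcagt
TATAAA was found in 3 of the 7 promoters, against 12.9% of 33469 rat promoters of the same length, and in Nppa it stood on the gene's own strand 39 bases before the start. In Myl4 it stood on the other strand, as it did in Gja5, and the Myl7 window held none. The nuclear receptor core AGGTCA, the kind of sequence that NR2F proteins bind, was in 14.1% of all these promoters and in none of the 7. The GATA factor core AGATAA was in 10.3% of all and in 2 of the 7, Bmp10 and Pam. These letters are descriptions of short windows and say nothing on binding.

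Levels between genes were set side by side only in mouse, as CPM per kilobase of merged exon, since the annotation at hand is of the files' build there. Nppa was the most abundant of the 9, with a median of 5025 CPM per kilobase over the 9 libraries, above Myl2 (3101) and Myl3 (2105), the ventricular light chains. Myl7 followed at 1066 CPM per kilobase, then Myl4 at 122, Sln at 80.0 and Pam at 64.3. Bmp10 (12.5), Gja5 (9.30), Nr2f2 (2.15) and Nr2f1 (1.76) stood lowest. The ranges of Myl4 (38.3 to 202), Sln (29.2 to 286) and Pam (25.4 to 113) overlapped, and so did those of the last pair, 0.62 to 4.31 for Nr2f2 and 0.97 to 3.21 for Nr2f1. Nppa thus stood above Myl2 by its median, though its own libraries ran between 1503 and 8876 CPM per kilobase. This order depends on merged exon length, which was 0.86 kb for Nppa and 1.95 kb for Myl2. In CPM alone Myl2 had the higher median, 6047 against 4347 for Nppa. Myl7 (0.59 kb) and Myl4 (4.64 kb) had medians of 629 and 566 CPM, much closer than per kilobase. Merged exons pool all annotated transcripts of a gene, and which of them were made was not tested.

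The clearest differences in value between mouse genotypes were in the light chains. Myl7 (chr11:5896637-5898782, minus strand, GRCm38, as for all mouse positions) encodes the atrial regulatory light chain and Myl4 (chr11:104550663-104595753, plus strand) the atrial essential light chain. Myl7 was at 734, 359 and 364 CPM in Cre f/f, at 2091, 946 and 748 CPM in Cre f/+, and at 629, 453 and 183 CPM in Vldlr f/f. Every Cre f/+ library lay above every library of the other genotypes, but the lowest of them was only just above the highest Cre f/f library. The log2 fold change of Myl7 was 1.61 ± 0.51 (SE, n = 3 each) for Cre f/+ against Vldlr f/f, a 3.04-fold difference (limma adjusted p = 0.999), and -1.31 ± 0.51 for Cre f/f against Cre f/+ (limma adjusted p = 1). Against Vldlr f/f, Cre f/f differed by 0.29 ± 0.51, well inside the spread. These 3 mouse comparisons share their libraries and are not independent.

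Myl4 was at 533, 536 and 566 CPM in Cre f/f, at 873, 939 and 620 CPM in Cre f/+, and at 616, 307 and 177 CPM in Vldlr f/f. The Cre f/f libraries were tightly grouped, while Vldlr f/f spread over the widest range and its highest library came within a few CPM of the lowest Cre f/+ library. The log2 fold change was 1.3 ± 0.38 for Cre f/+ against Vldlr f/f (2.47-fold, limma adjusted p = 0.999). It was 0.75 ± 0.38 for Cre f/f against Vldlr f/f and -0.55 ± 0.38 for Cre f/f against Cre f/+. By unadjusted p Myl4 ranked 19 and Myl7 ranked 40 of the 14922 genes tested between Cre f/+ and Vldlr f/f, and none of those genes was called.

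Sln (chr9:53850164-53854560, plus strand) encodes sarcolipin, a small membrane peptide that slows the calcium pump SERCA and is far more abundant in atria. It was at 85.5, 74.6 and 105 CPM in Cre f/f, at 377, 143 and 124 CPM in Cre f/+, and at 160, 63.0 and 38.4 CPM in Vldlr f/f. All Cre f/+ libraries lay above all Cre f/f libraries, and replicate 1 of Cre f/+ stood far above the rest. The log2 fold change was 1.35 ± 0.52 for Cre f/+ against Vldlr f/f (limma adjusted p = 0.999) and -1.10 ± 0.52 for Cre f/f against Cre f/+ (limma adjusted p = 1). Of the 7 genes of the SERCA list, which holds Sln, Sln alone had a positive fold change between Cre f/+ and Vldlr f/f, and the list's median was -0.30. Ryr2, the calcium release channel, differed by -0.40 ± 0.22 and Casq2, its luminal calcium store protein, by -0.53 ± 0.34 there, and neither passed.

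**Figure D1:**
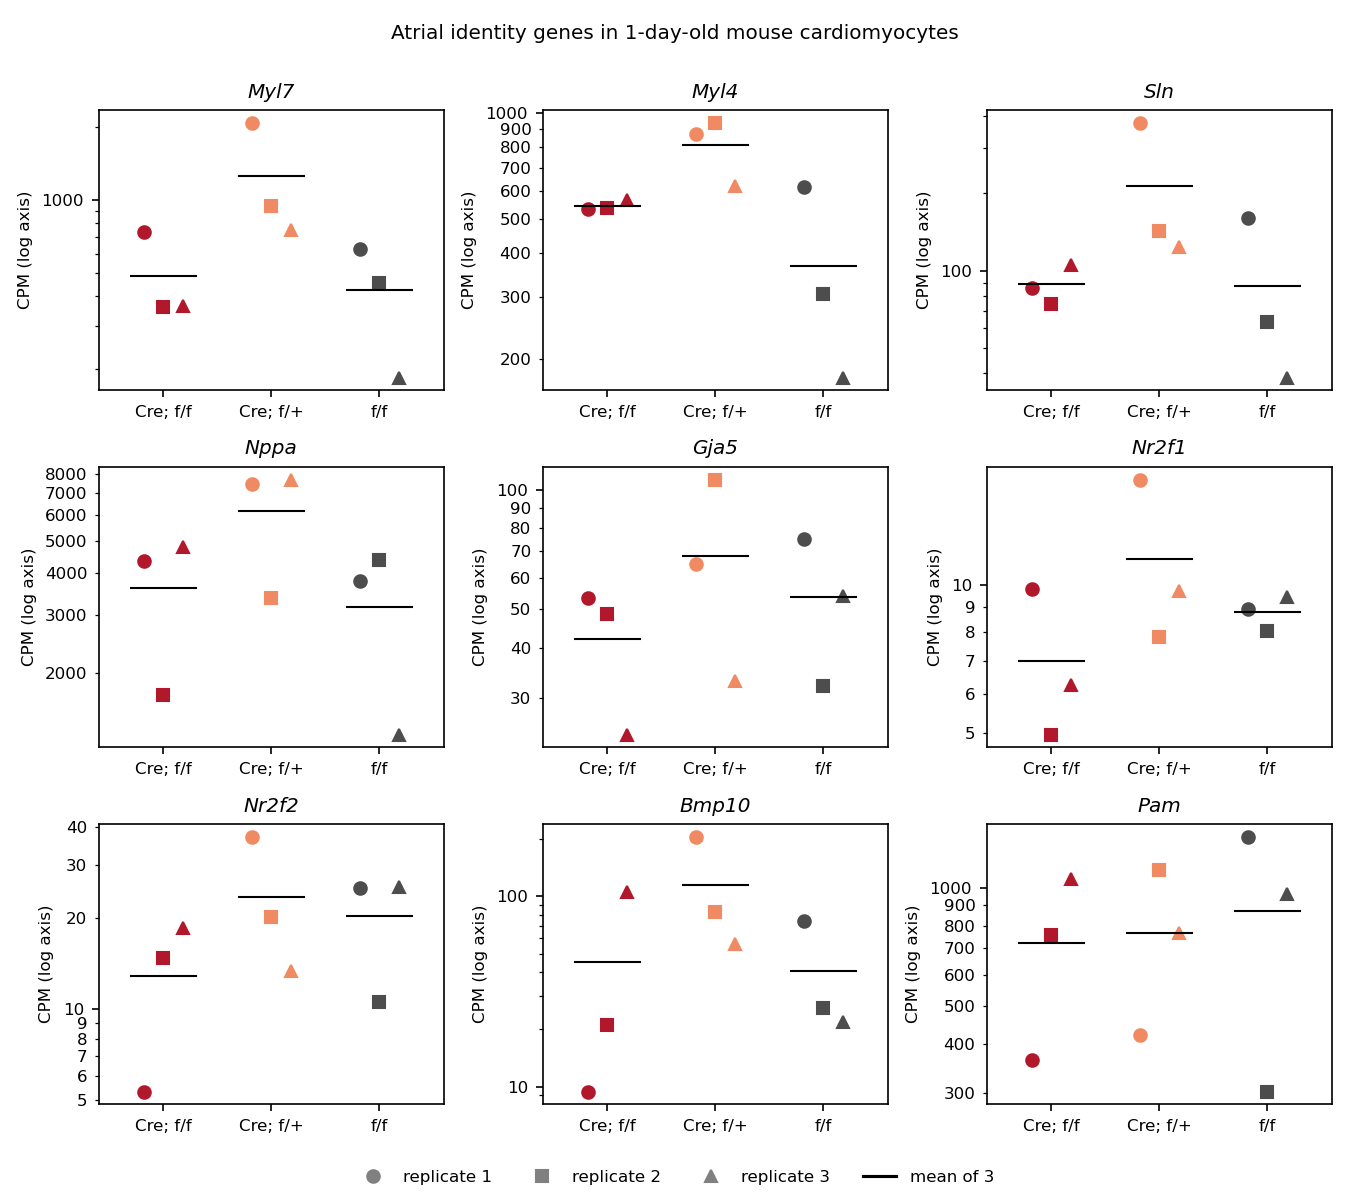
CPM (log axes, a separate scale for each gene) of the 9 genes in the 9 mouse libraries. Points are libraries, with the replicate number as the shape, and bars are means of 3; for Myl7 and Myl4 the Cre f/+ libraries stand above the others, while for Pam, Gja5 and Nr2f2 the 3 genotypes overlap.

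The genes of the secretory granule overlapped between genotypes. Nppa (chr4:148000722-148002079, plus strand) encodes atrial natriuretic peptide. It was at 4347, 1709 and 4811 CPM in Cre f/f, at 7446, 3373 and 7678 CPM in Cre f/+, and at 3783, 4403 and 1300 CPM in Vldlr f/f. The groups overlapped, with log2 fold changes of 0.24 ± 0.55 for Cre f/f and 1.05 ± 0.55 for Cre f/+ against Vldlr f/f. For Cre f/f against Cre f/+ it was -0.81 ± 0.55. Pam (chr1:97795114-98095646, minus strand) encodes the enzyme that amidates peptides and is a main membrane protein of atrial secretory granules. It was at 364, 758 and 1050 CPM in Cre f/f, at 421, 1111 and 764 CPM in Cre f/+, and at 1347, 302 and 961 CPM in Vldlr f/f. Its fold change was -0.04 ± 0.58 for Cre f/+ against Vldlr f/f and turned to 0.01 when libraries were rescaled by the median of ratios. The 11 genes of the natriuretic peptide list, which holds Nppa and Pam, gave 5 positive fold changes in that comparison, with a median of -0.04 and no call. In the list, Nppb (brain natriuretic peptide) ran at 109, 354 and 1967 CPM in Cre f/f, at 64.4, 222 and 1958 CPM in Cre f/+ and at 94.8, 318 and 55.5 CPM in Vldlr f/f. Replicate 3 of both Cre genotypes was far above all other libraries in Nppb. Corin, the protease that cuts the Nppa precursor, was at 9.67 CPM in replicate 1 of Cre f/f and between 89.2 and 182 CPM in the other libraries.

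Gja5 (chr3:96904693-97077416, plus strand) encodes connexin 40, a gap junction protein of atria, conduction fibres and arterial endothelium. It was at 53.4, 48.8 and 24.2 CPM in Cre f/f, at 64.9, 106 and 33.0 CPM in Cre f/+, and at 75.3, 32.1 and 54.1 CPM in Vldlr f/f. The genotypes overlapped, with fold changes between -0.60 and 0.26 on the log2 scale and SEs of 0.46. Its span overlaps Gpr89 on the opposite strand, at up to 16.2 CPM, and whether counting used strand is not stated. Of 11 trabecular and conduction genes, 9 were negative in each Cre genotype against Vldlr f/f (medians -0.46 for Cre f/f and -0.48 for Cre f/+), with no call. Of all 14922 genes, 9867 were negative for Cre f/f and 8704 for Cre f/+ against Vldlr f/f.

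Bmp10 (chr6:87428994-87437677, plus strand) encodes a bone morphogenetic protein of trabeculae in the embryo and of the right atrium after birth. It was the most scattered of the 9 in mouse, at 9.42, 21.2 and 106 CPM in Cre f/f, at 205, 83 and 56.1 CPM in Cre f/+, and at 74.2, 25.8 and 21.8 CPM in Vldlr f/f. Its highest library was 21.8-fold above its lowest, and all 3 genotypes overlapped. Its log2 fold change was 1.48 ± 0.80 for Cre f/+ against Vldlr f/f and -1.78 ± 0.80 for Cre f/f against Cre f/+, with adjusted p of 0.999 and 1 (limma). Its pathway list (receptors such as Acvrl1 and Bmpr2, Smad proteins and Id targets, 17 genes with Bmp10) was near balance in the comparison of Cre f/+ with Vldlr f/f, with 9 positive, 8 negative and a median of 0.07. Between the Cre genotypes 13 of the 17 were negative, with a median of -0.18, where 8986 of all 14922 genes were negative.

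The transcription factors had low values that overlapped between genotypes. Nr2f1 (chr13:78188973-78199757, minus strand) was at 9.80, 4.96 and 6.25 CPM in Cre f/f, at 16.3, 7.84 and 9.73 CPM in Cre f/+, and at 8.94, 8.06 and 9.46 CPM in Vldlr f/f. Nr2f2 (chr7:70351944-70366735, minus strand) was at 5.34, 14.8 and 18.5 CPM in Cre f/f, at 37.2, 20.2 and 13.3 CPM in Cre f/+, and at 25.1, 10.6 and 25.4 CPM in Vldlr f/f. Replicate 1 of Cre f/+ was the highest library in both, and genotypes overlapped throughout. The largest fold change of the pair was -0.86 ± 0.51 for Nr2f2 between Cre f/f and Cre f/+. Of the 6 venous and lymphatic endothelial markers, cells where Nr2f2 is also made, 3 were negative in that comparison (median -0.04).

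Across the 9 genes, limma called 0 in each mouse comparison, and 0% of all 14922 genes. At an unadjusted p under 0.05 stood 0 of the 9 for Cre f/f against Vldlr f/f, 3 for Cre f/+ against Vldlr f/f, and 1 for Cre f/f against Cre f/+. An edgeR test on the steps of the values also called 0, with 0, 3 and 2 genes at an unadjusted p under 0.05 in the same order. Over all genes limma had 453, 362 and 138 of 14922 at that level and edgeR 509, 497 and 256 of the 19684 that it tested. Genotypes did not overlap in 0 of the 9 genes for Cre f/f against Vldlr f/f, where 8.52% of all genes did not (1.72% higher and 6.81% lower). They did not overlap in 2 genes for Cre f/+ against Vldlr f/f, both higher, where 5.97% of all genes did not (2.2% higher and 3.77% lower). Between the Cre genotypes they did not overlap in 3 genes, all lower in Cre f/f, where 2.49% of all genes did not (0.677% higher and 1.82% lower). The median log2 fold change of the 9 was -0.14, 1.05 and -0.81 in these comparisons. Over all genes it was -0.11, -0.06 and -0.06, and the first of these went to -0.0021 on rescaling. All 9 were negative between the Cre genotypes, where 8986 of all 14922 genes were. Under rescaling, 9 of 9 were positive for Cre f/+ against Vldlr f/f in place of 8.

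Single libraries moved these medians. For Cre f/f against Vldlr f/f the median of the 9 was 0.30 without replicate 1 of Vldlr f/f and -0.39 without its replicate 2. It was also 0.04 without replicate 1 of Cre f/f, -0.033 without its replicate 3, -0.29 without replicate 3 of Vldlr f/f, -0.020 on rescaling and 0.13 by edgeR. Without replicate 3 of Vldlr f/f, the lowest library in Myl7, Myl4, Sln and Nppa, the median of the 9 for Cre f/+ against Vldlr f/f was 0.50, and 2 of the 9 had an unadjusted p under 0.05. Without replicate 1 of Cre f/+, the highest in Myl7, Sln, Nr2f1, Nr2f2 and Bmp10, that median was 0.86, with 7 of 9 positive, and the median of Cre f/f against Cre f/+ was -0.56, with 9 of 9 negative and none at an unadjusted p under 0.05.

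Set against the ventricular light chain of the same library, Myl7 was 9.47%, 5.95% and 7.66% of Myl2 (in CPM) in Cre f/f, 32.8%, 14.2% and 15.6% in Cre f/+, and 13.4%, 6.38% and 3.74% in Vldlr f/f. Myl4 was 10.4%, 10.6% and 13.3% of Myl3 in Cre f/f, 26.5%, 19.2% and 15.7% in Cre f/+, and 14.3%, 7.13% and 4.38% in Vldlr f/f. These ratios in CPM serve to compare libraries and not the genes with each other, since the exon lengths of each pair differ. In both ratios every Cre f/+ library lay above every other library. Myl2 varied by 1.65-fold over the 9 libraries (4682 to 7743 CPM) while Myl7 varied by 11.4-fold.

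**Figure D2:**
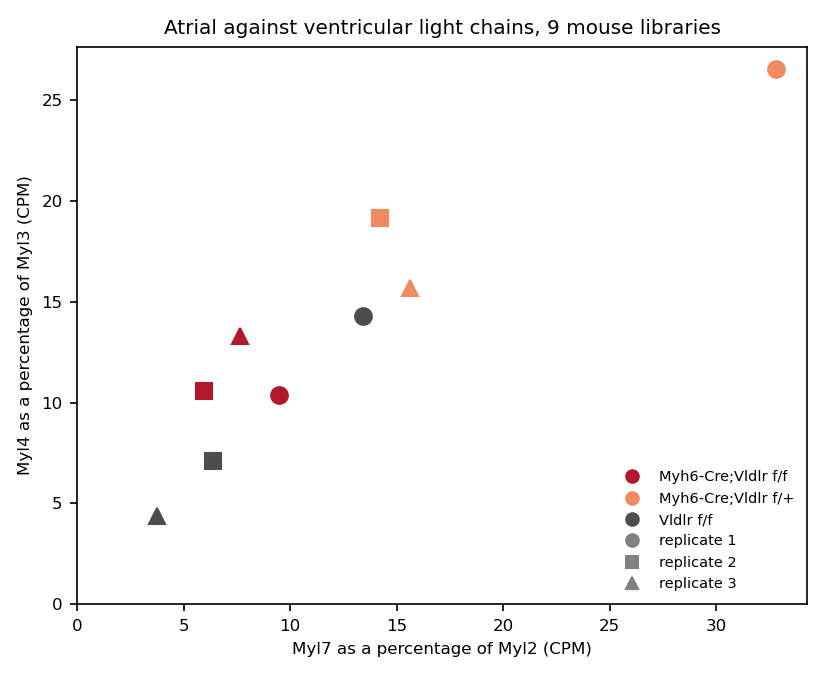
Myl7 as a percentage of Myl2 (x axis) against Myl4 as a percentage of Myl3 (y axis), both from CPM, for each of the 9 mouse libraries, coloured by genotype and shaped by replicate number. Replicate 1 of Cre f/+ lies at the top right (32.8% and 26.5%) and replicate 3 of Vldlr f/f at the bottom left (3.74% and 4.38%).

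A list of 15 other atrial-enriched genes, chosen with earlier results of these data known, followed the 9 in direction. For Cre f/+ against Vldlr f/f, 12 of the 15 were positive with a median of 0.65, and for Cre f/f against Cre f/+, 12 of the 15 were negative with a median of -0.70. The 10 ventricular identity genes had medians of -0.26 and 0.21 in these comparisons, and no gene of either list was called. Fgf12, a modulator of sodium channels, was at 17.9, 13.3 and 13.8 CPM in Cre f/f, at 32.2, 23.1 and 21.6 CPM in Cre f/+ and at 15.4, 7.07 and 3.30 CPM in Vldlr f/f. Its log2 fold change of 1.66 ± 0.42 for Cre f/+ against Vldlr f/f had rank 7 of 14922 by p (limma adjusted p = 0.999). Kcnj5, an atrial potassium channel subunit, went the other way, at -1.03 ± 0.54. Irx4, a ventricular transcription factor, was at 142, 119 and 85.5 CPM in Cre f/f, at 98, 106 and 85.4 CPM in Cre f/+ and at 144, 145 and 164 CPM in Vldlr f/f. Its log2 fold change was -0.64 ± 0.22 for Cre f/+ against Vldlr f/f (limma adjusted p = 0.999).

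Markers of other cells also differed in value between genotypes. The 8 epicardial and mesothelial markers summed to 152, 190 and 358 CPM in Cre f/f, to 512, 277 and 125 CPM in Cre f/+ and to 186, 100 and 92.9 CPM in Vldlr f/f, and none was at 0 in any library. All 8 were positive for Cre f/+ against Vldlr f/f (median 1.26), with no call. All 8 were also positive for Cre f/f against Vldlr f/f (median 0.94), where the 9 atrial genes had a median of -0.14. Between the Cre genotypes all 8 were negative (median -0.23), as were all 9 atrial genes. The 7 erythroid markers summed to 3083 to 6289 CPM in Cre f/f, to 4593 to 6701 CPM in Cre f/+ and to 2964 to 6070 CPM in Vldlr f/f, which overlapped. All 7 were positive for Cre f/+ against Vldlr f/f (median 0.44), and 6 of the 7 were negative between the Cre genotypes (median -0.40). The 9 fibroblast markers summed to 3476 to 3893 CPM in Cre f/f, to 3483 to 5657 CPM in Cre f/+ and to 2989 to 4052 CPM in Vldlr f/f. All 9 of them were positive for Cre f/+ against Vldlr f/f (median 0.33), and 8 of the 9 were negative between the Cre genotypes (median -0.31). In these 2 comparisons the epicardial, erythroid and fibroblast medians thus had the sign of the atrial genes' median, with no call in any list. Cardiomyocyte markers summed to 41991 to 50699, 50874 to 53237 and 43575 to 56310 CPM in the same order of genotypes. The part of tissue makeup in the atrial gene values was not tested.

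**Figure D3:**
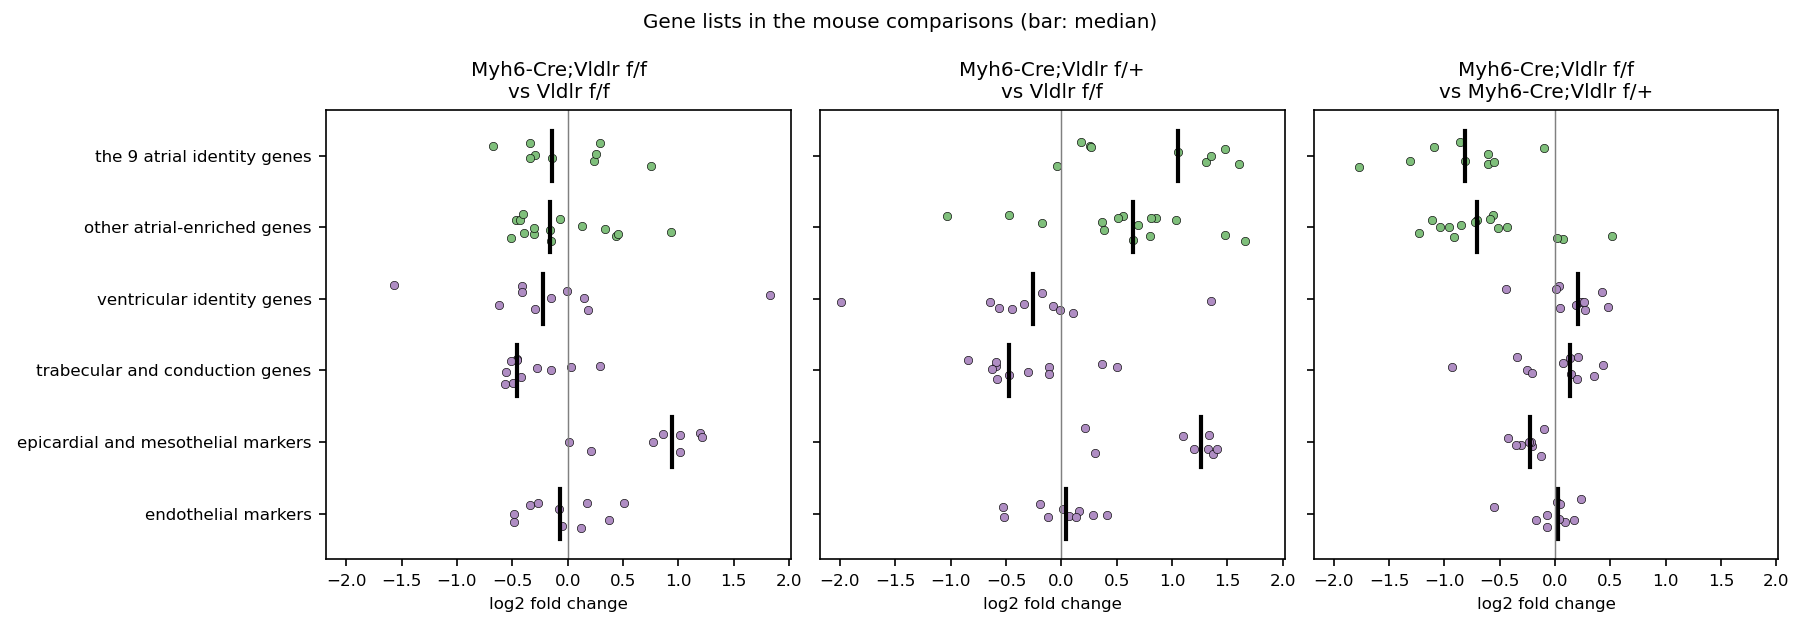
Log2 fold changes of the 9 atrial identity genes and of 5 other gene lists in the 3 mouse comparisons. Points are genes and bars are medians; the medians of both atrial lists lie right of 0 for Cre f/+ against Vldlr f/f (1.05 and 0.65) and left of 0 between the Cre genotypes, and the medians of the epicardial and mesothelial markers lie right of 0 in both comparisons with Vldlr f/f and left of 0 between the Cre genotypes.

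The genes most like the mean profile of Myl7, Myl4 and Sln over the 9 mouse libraries were sought among 10554 genes by Pearson's r on log2(CPM + 1). Mybphl, an atrial myosin-binding protein, came first with r = 0.986 and ran between 14.3 and 126 CPM. Fgf12 (0.951), Podn (0.94), Usp29 (0.923) and Pxdc1 (0.92) followed, and all 5 were lowest in replicate 3 of Vldlr f/f and highest in replicate 1 of Cre f/+. Without those libraries r was 0.964 for Mybphl, 0.884 for Fgf12, 0.896 for Podn, 0.587 for Usp29 and 0.665 for Pxdc1. Taken as deviations from genotype means over all 9 libraries, r was 0.97 for Mybphl and 0.957 for Fgf12, which describes the same values that chose these genes. Among the other atrial identity genes, r with the same profile was 0.727 for Nppa, 0.677 for Bmp10, 0.497 for Nr2f1, 0.382 for Gja5, 0.268 for Nr2f2 and -0.08 (-0.082) for Pam. Without the same 2 libraries their order changed, with r of 0.68 for Gja5, 0.617 for Pam, 0.463 for Bmp10, 0.462 for Nr2f1, 0.374 for Nr2f2 and 0.237 for Nppa. These values are descriptions over libraries that share genotypes and preparation, with no test.

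Rat values are not per length, so they serve to compare libraries and not genes. In the 12 libraries deposited together, Nppa ran at 3825 to 8216 CPM and Pam at 1367 to 1496 CPM. Gja5 ran at 44.5 to 125 CPM, Myl4 at 28.2 to 83.2 CPM, Nr2f2 at 21.2 to 33.5 CPM, Myl7 at 16.6 to 32.0 CPM and Nr2f1 at 7.89 to 11.6 CPM. Sln was at 1.77 to 4.42 CPM and Bmp10 at 0.09 to 1.70 CPM. Of the other atrial-enriched genes, Sbk2 was at most 0.14 CPM and Sbk3 at most 0.07 CPM in these libraries, and Kcna5 at most 0.14 CPM. Ventricular markers were present, with Myl3 at 1640 to 2395 CPM, Myh7 at 6565 to 9959 CPM and Irx4 at 19.8 to 98.7 CPM, and Myl2 at 73.7 to 293 CPM. The other 4 libraries (si-Thbs1 and si-Control_t) form a table of their own, in which Myl7 was at 88.4 to 99.8 CPM and Sln at 8.68 to 15.0 CPM. The tables were normalized separately, and no test was made between them.

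**Figure D4:**
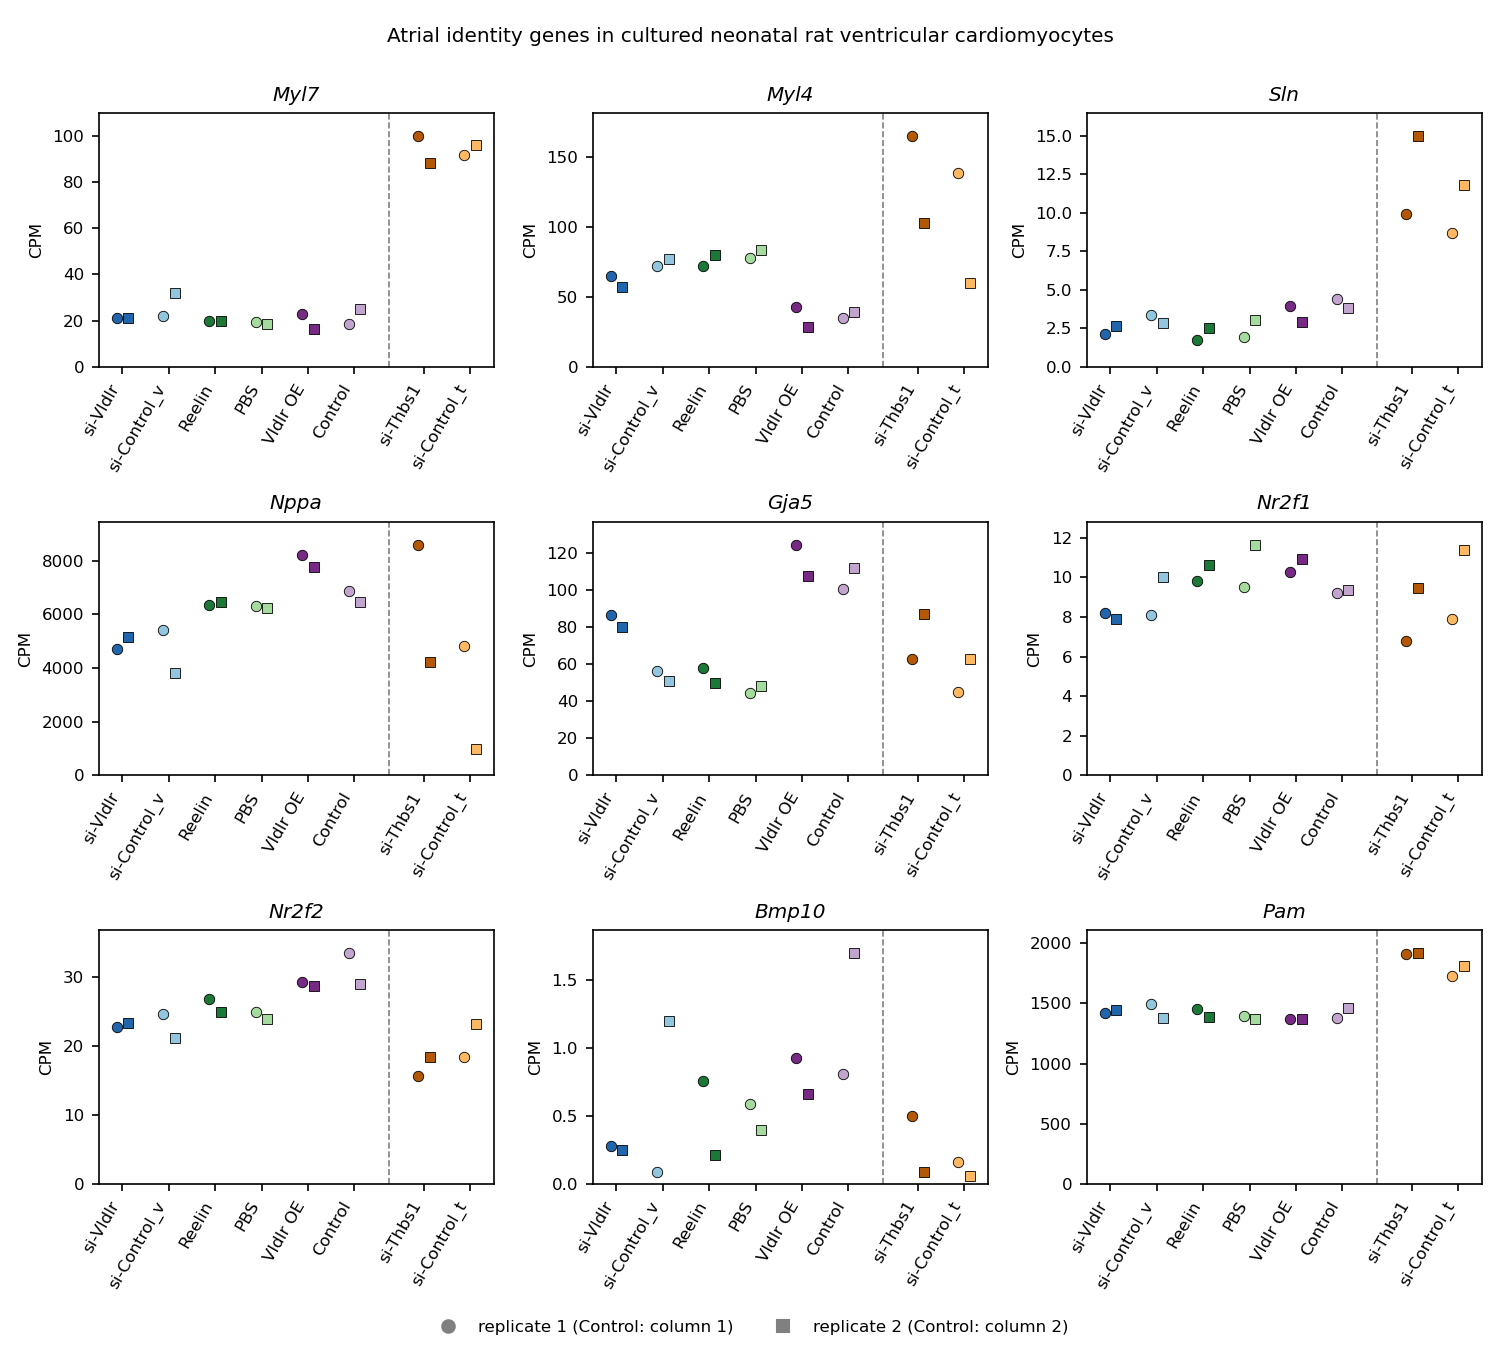
CPM (linear axes from 0, a separate scale for each gene) of the 9 genes in the 16 rat libraries by group, with each treated group left of its control and a dashed line between the 2 tables. Gja5 is higher and Myl4 lower in both groups of the overexpression experiment than in the other 4 groups of the 12-library table, and Myl7 and Sln are higher in the 4-library table.

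After Vldlr knockdown, Gja5 stood out among the 9. It was at 86.5 and 80.3 CPM in si-Vldlr cultures, against 56.5 and 51.2 CPM in si-Control_v. The groups did not overlap, and the log2 fold change of 0.62 ± 0.11 (n = 2 each, 1.54-fold) had rank 28 of 13860 genes by p (limma adjusted p = 0.101). Without replicate 1 of si-Control_v it passed, at an adjusted p of 0.0487 (limma), with 167 genes called in place of 4. The 9 endothelial markers measured summed to 257 to 262 CPM in si-Vldlr cultures, against 197 to 231 CPM in si-Control_v. Only 4 of the 9 were positive (median -0.15), and Eng made up most of each sum. Eng was at 194 and 196 CPM in si-Vldlr cultures, against 138 and 145 CPM in si-Control_v. The 6 arterial endothelial markers summed to 235 to 249 CPM in si-Vldlr cultures, against 247 to 262 CPM in si-Control_v. Gja4, the connexin of arterial endothelium, was at 1.78 and 1.95 CPM in si-Vldlr cultures, against 0.64 and 1.54 CPM in si-Control_v. Gja1, the main connexin of ventricular muscle, was at 299 and 389 CPM in si-Vldlr cultures, against 345 and 671 CPM in si-Control_v. The part of endothelial cells in the Gja5 values was not tested.

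The contractile and calcium genes were lower in value after Vldlr knockdown, and none passed. Myl7 was at 21.0 and 21.1 CPM in si-Vldlr cultures, against 22.1 and 32.0 CPM in si-Control_v (log2 fold change -0.33 ± 0.20). Myl4 was at 65.2 and 57.0 CPM in si-Vldlr cultures, against 72.1 and 77.0 CPM in si-Control_v (-0.29 ± 0.16). Sln was at 2.16 and 2.65 CPM in si-Vldlr cultures, against 3.35 and 2.87 CPM in si-Control_v (-0.27 ± 0.21). These 3 and Gja5 did not overlap between groups, 4 of 9 genes, where 48.5% of all 13860 genes did not (21.1% higher and 27.4% lower). All 9 cardiomyocyte markers measured were also negative (median -0.23, 0 called), and 8 of 10 ventricular identity genes were negative (median -0.23). The median of the 9 atrial genes was -0.15, with 3 positive and 6 negative, against -0.02 over all genes. That median was -0.0033 (3 positive, 4 negative) over the 7 genes left at a CPM minimum of 5, and -0.07 (-0.0748) over 8 genes with these groups fitted alone. It was -0.08 (-0.0798) without replicate 2 of si-Control_v, with 1 positive and 7 negative. Bmp10, among the negative genes, was at 0.28 and 0.25 CPM in si-Vldlr cultures, against 0.09 and 1.2 CPM in si-Control_v. It passed the filter of 1 CPM in 2 libraries through a single si-Control_v library and a single Control library (1.70 CPM). limma called 0 of the 9 and 0.0289% of all genes. At an unadjusted p under 0.05 stood 1 of the 9 (Gja5), where 11.8% of all genes did.

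None of the 9 genes passed for Reelin against PBS. Gja5 was at 58.0 and 49.8 CPM with Reelin, against 44.5 and 48.4 CPM in PBS cultures (difference of 0.21 ± 0.11 on the log2 scale, limma adjusted p = 1). Nppa was at 6355 and 6464 CPM with Reelin, against 6321 and 6250 CPM with PBS, and Myl4 was at 71.7 and 80.0 CPM with Reelin, against 77.4 and 83.2 CPM with PBS. Fold changes of the 9 lay between -0.15 and 0.21 on the log2 scale, with a median of 0.03 (0.02 over all genes), which went to 0.0065 on rescaling and to 0.05 (0.0546) without replicate 2 of Reelin. limma called 0 of them and 0.0144% of all genes. Of the 9, 0 had an unadjusted p under 0.05, where 1.36% of all genes did. In 4 of the 9 the Reelin libraries were both above the PBS libraries (Gja5, Myl7, Nppa and Nr2f2), where 19.7% of all genes were. In none were both below (13% of all genes, and 32.8% in either direction). Myl7 was at 19.75 and 19.74 CPM with Reelin, against 19.58 and 18.4 CPM with PBS. Nr2f2 was at 26.81 and 24.88 CPM with Reelin, against 24.88 and 23.92 CPM with PBS. The nearest Nr2f2 libraries were thus equal as printed, and those of Myl7 nearly so. The 95% intervals were -0.38 to 0.49 for Myl7 and -0.36 to 0.42 for Nppa, so changes of that size could not be told from the spread.

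With Vldlr overexpression, Nppa was at 8216 and 7787 CPM in Vldlr OE, against 6891 and 6457 CPM in Control (log2 fold change 0.26 ± 0.18, limma adjusted p = 0.958). The groups did not overlap for Nppa, nor for Nr2f1 (10.3 and 10.9 CPM in Vldlr OE, against 9.19 and 9.35 CPM in Control) or Pam (1369 and 1367 CPM in Vldlr OE, against 1376 and 1462 CPM in Control). That is 3 of 9 genes, where 25% of all genes did not overlap (9.54% higher and 15.5% lower). Gja5 was at 125 and 108 CPM in Vldlr OE, against 101 and 112 CPM in Control, and Myl4 at 42.9 and 28.2 CPM in Vldlr OE, against 34.9 and 39.0 CPM in Control. Both genes overlapped between these groups, while in both groups Gja5 was above and Myl4 below every library of the siRNA and Reelin experiments in the same table. Endothelial markers summed to 269 to 270 CPM in Vldlr OE and to 257 to 270 CPM in Control, and their part in Gja5 was not tested. limma called 0 of the 9 (0.00722% of all genes), and 0 had an unadjusted p under 0.05 (4.52% of all genes). The median was -0.08 (-0.03 over all genes), with 3 positive and 6 negative. Bmp10 was the most negative (-0.31), at 0.93 and 0.66 CPM in Vldlr OE, against 0.81 and 1.7 CPM in Control. It passed the filter on low values through a single Control library and a single si-Control_v library. Over the 7 genes left at a CPM minimum of 5 the median was -0.052, with 3 positive and 4 negative. The median of the 9 turned to 0.09 (0.0866) without replicate 2 of Vldlr OE, with 5 positive and 4 negative. Without the second Control library the median was 0.03 (0.0337), with 4 of each among 8 genes. The Control columns were assigned to that group by elimination and not to single numbered samples.

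With Thbs1 knockdown, Nppa was at 8604 and 4225 CPM in si-Thbs1, against 4815 and 989 CPM in si-Control_t. Each group spread widely and the groups overlapped, with a log2 fold change of 1.47 ± 0.77 (limma adjusted p = 1). Replicate 2 of si-Control_t was the lowest library in Nppa and Myl4. Without replicate 1 of si-Control_t, which left 1 control library, the log2 fold changes were 2.61 for Nppa and 1.11 for Myl4. Without replicate 2 of si-Control_t they were 0.32 for Nppa and -0.09 for Myl4, so both values turn on which control library is kept. Myl4 was at 165 and 103 CPM in si-Thbs1, against 138 and 59.6 CPM in si-Control_t. Nppb was at 1340 and 189 CPM in si-Thbs1, against 509 and 144 CPM in si-Control_t, with the first replicate above the second in each group, as for Nppa. Cardiomyocyte markers summed to 28877 and 14742 CPM in si-Thbs1, against 23293 and 18216 CPM in si-Control_t, in the same order, and their part in these values was not tested.

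The other genes differed less in that experiment. Gja5 was at 62.6 and 87.0 CPM in si-Thbs1, against 45.1 and 63.0 CPM in si-Control_t (log2 fold change 0.46 ± 0.23). Myl7 was at 99.8 and 88.4 CPM in si-Thbs1, against 91.6 and 96.0 CPM in si-Control_t. Pam was at 1908 and 1917 CPM in si-Thbs1, against 1726 and 1806 CPM in si-Control_t, and was the only one of the 8 genes tested whose groups did not overlap, where 29.3% of all 13416 genes did not (18.5% higher and 10.8% lower). Bmp10 was at 0.50 and 0.09 CPM in si-Thbs1, against 0.16 and 0.06 CPM in si-Control_t, and was not tested. limma called 0 of the 8 (0.0447% of all genes), and 0 had an unadjusted p under 0.05 (5.52% of all genes). The median was 0.18 (0.03 over all genes). That median was 0.06 (0.0648) without replicate 1 of si-Control_t, 0.09 (0.0914) without its replicate 2 and 0.10 (0.1004) without replicate 2 of si-Thbs1. All 9 fibroblast markers were negative in this comparison (median -0.30) and summed to 28151 and 34661 CPM in si-Thbs1, against 33088 and 38504 CPM in si-Control_t, and their part was not tested.

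**Figure D5:**
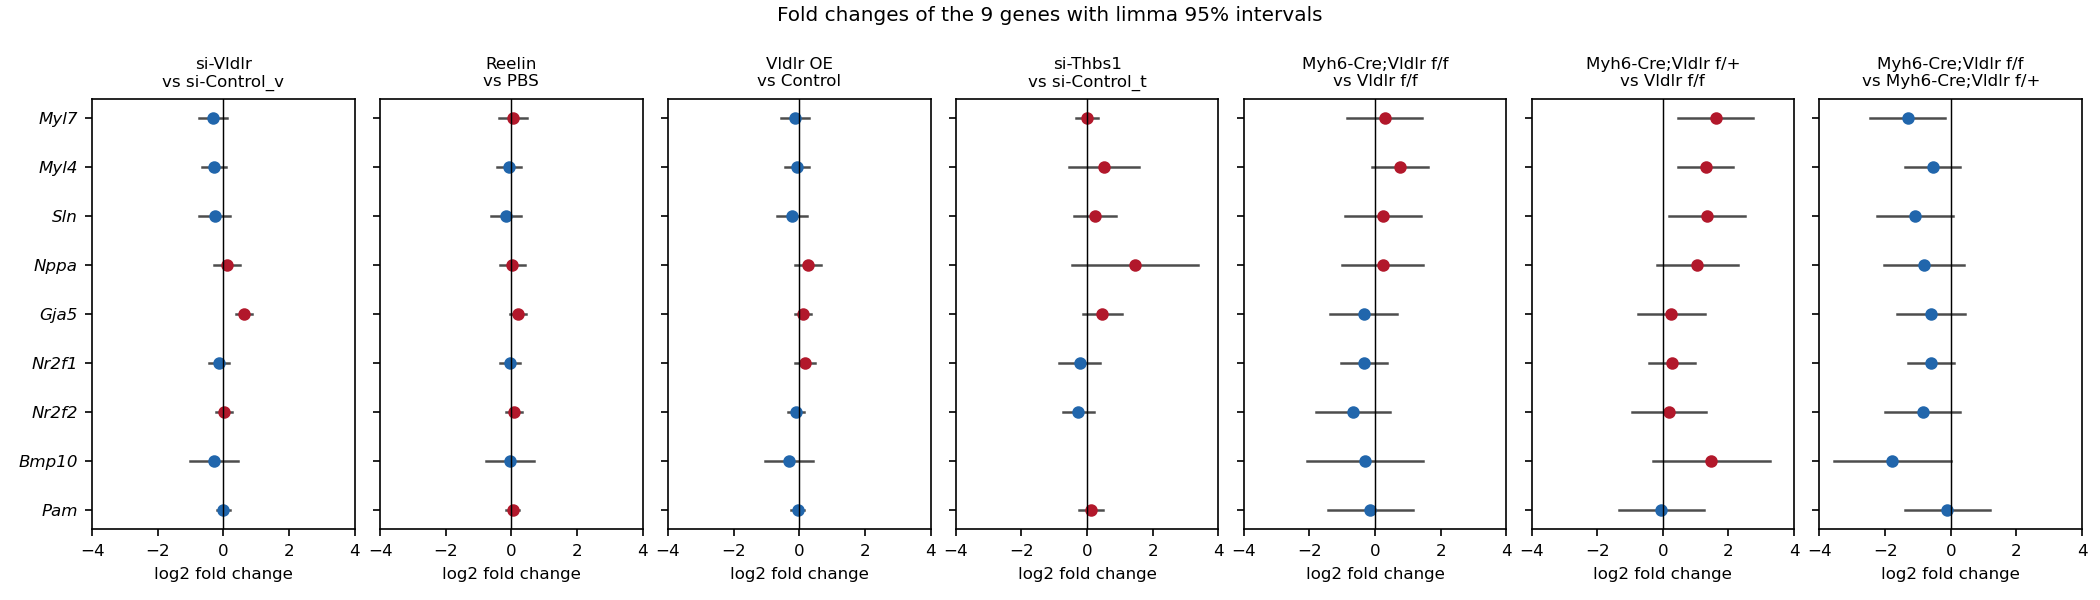
Log2 fold changes (x axis, on the log2(CPM + 1) scale) of the 9 genes in the 7 comparisons, with limma 95% intervals as lines and the points red for positive and blue for negative values. The intervals of Myl7, Myl4 and Sln lie right of 0 for Cre f/+ against Vldlr f/f, that of Myl7 lies left of 0 between the Cre genotypes, and that of Gja5 lies right of 0 for si-Vldlr; none of these passed after adjustment over all genes.

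Between si-Vldlr in rat and Cre f/f against Vldlr f/f in mouse, the fold changes of Nppa, Nr2f1, Bmp10 and Pam had the same sign. Those of Gja5, Nr2f2, Myl4, Myl7 and Sln had opposite signs. In rat, Pam (-0.0033 ± 0.09) and Nr2f2 (0.01 ± 0.10) were near 0, and Bmp10 was at most 1.2 CPM in these groups. The signs of Nppa, Nr2f2 and Pam in rat, and of Nppa, Sln, Bmp10 and Pam in mouse, turned on single libraries. Values of both comparisons follow for the connexin and the light chains. Gja5 had a log2 fold change of 0.62 (interval 0.38 to 0.87) in si-Vldlr against si-Control_v and of -0.34 (-1.37 to 0.68) in Cre f/f against Vldlr f/f. Myl4 had -0.29 (-0.65 to 0.08) in si-Vldlr and 0.75 (-0.09 to 1.60) in Cre f/f, against their controls. Myl7 had -0.33 (-0.76 to 0.11) in si-Vldlr and 0.29 (-0.84 to 1.43) in Cre f/f. The mouse signs of Myl7 and Gja5 turned on single libraries, with Myl7 at -0.22 without replicate 3 of Vldlr f/f and at -0.05 (-0.0476) without replicate 1 of Cre f/f, and Gja5 at 0.0065 without replicate 3 of Cre f/f. The difference between species was not tested, and the rat and mouse intervals overlapped for Gja5, Myl4 and Myl7. The mouse intervals held the rat estimates of Gja5 and Myl7 but not that of Myl4, whose rat value has an error of its own. In rat, the genes most like the profile of Myl7, Myl4 and Sln over the 12 libraries were Rfc3 (r = 0.943), Dut (0.942), Scly (0.908), Ogg1 (0.897) and Mrpl3 (0.889) among 10200 genes. The replication factor subunit Rfc3 and the dUTPase Dut act in DNA synthesis. Sln itself had r of 0.045 with that profile, against 0.969 in mouse, and Myl7 and Myl4 had 0.719 and 0.723. Taken as deviations from group means, r with the profile was 0.588 for Sln, 0.727 for Myl7 and 0.934 for Myl4. Without the 2 libraries farthest out (replicate 2 of Vldlr OE and replicate 2 of si-Control_v), it was 0.762 for Rfc3 and 0.845 for Dut, but 0.151 for Myl7, 0.515 for Myl4 and 0.126 for Sln. These values too are descriptions, with no test.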

How the data were processed

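The authors deposited gene tables in CPM, in which every library sums to 1000000. Per the submitters' processing notes, the builds were rn6 and mm10 and the tools named are edgeR 3.20.9, StringTie 1.3.4 and HISAT2 2.1.0, without roles. Columns were matched to samples by name; 2 columns that match no label were assigned to Control by elimination. Of each table, 4 rows with repeated, date-like names were left out. Mouse values were all whole multiples of a step (within 0.05 steps), and 97.5% to 97.9% of low rat values were; libraries held 66088371 to 97773382 steps, and a step need not be a read.

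Genes with CPM of at least 1 in 2 rat or 3 mouse libraries were fitted with limma 3.58.1 (R 4.3.3, intensity trend) on log2(CPM + 1), all groups of a table together, with Benjamini-Hochberg adjustment over all genes and calls at 0.05. This scale understates changes of low genes. edgeR 4.0.16 was run on mouse steps as an alternative added after seeing the data. The fit was run on simulated data with independent noise and changes planted in 1 comparison of each table. That run had no shifts of whole libraries, so it does not show how the fit behaves under them. The 9 genes and all lists were chosen with earlier results of these data known. Genes of most like pattern were the 5 with the highest r among named genes that averaged 5 CPM or more with no library at 0. Gene spans and merged exons are from GENCODE M21 (GRCm38).

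The labels give shared replicate numbers but no shared litter or day. In mouse, deviations of same-numbered libraries of Cre f/f and Cre f/+ correlated at 0.459, 0.439 and 0.333, which passed the rule for pairing (over 0.1 in each of 3 pairs), from the data alone. Neither Cre genotype paired with Vldlr f/f. Libraries of different number also correlated, with 0.443 for replicate 1 of Cre f/f and replicate 2 of Vldlr f/f. The pairing of the Cre genotypes is thus not established.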

Additional observations from a re-analysis of the deposited data

How the results depend on the processing

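Alternatives were pseudocounts of 0.1 and 5, no filter, a CPM minimum of 5, median-of-ratios rescaling, no intensity trend, compared groups fitted alone, a replicate block, edgeR on mouse steps and leaving out each library. Of 804 alternative fold changes of the 9 genes, 757 kept their direction and side of the threshold, 44 turned in sign (none of them called) and 3 passed the threshold. The causes were not tested. The number of the 9 genes called was 0 under each alternative except on leaving out libraries, where it ranged from 0 to 1 for si-Vldlr and from 0 to 2 for si-Thbs1. Rescaling turned Pam to 0.03 (0.0283) for si-Vldlr and to 0.01 (0.0111) for Cre f/+ against Vldlr f/f, and Myl7 to -0.03 (-0.026) for si-Thbs1. edgeR turned Bmp10 to 0.24 for Cre f/f against Vldlr f/f.

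Where leaving out a library left 1 sample in a rat group, that sample was assumed to vary like the others. On leaving out single libraries, the log2 fold changes that turned ran as follows. For si-Vldlr, Nppa ran from -0.14 to 0.37, Nr2f2 from -0.090 to 0.11 and Pam from -0.062 to 0.055. For Reelin, Sln ran from -0.38 to 0.075, Nr2f1 from -0.17 to 0.091 and Bmp10 from -0.30 to 0.23. For Vldlr OE, Myl7 ran from -0.35 to 0.087 and Myl4 from -0.38 to 0.21. For si-Thbs1, Myl7 ran from -0.085 to 0.089, Myl4 from -0.087 to 1.11, Sln from -0.025 to 0.52 and Nr2f1 from -0.46 to 0.020. For Cre f/f against Vldlr f/f, Myl7 ran from -0.22 to 0.67, Sln from -0.20 to 0.82, Nppa from -0.31 to 0.71, Gja5 from -0.67 to 0.0065, Bmp10 from -1.24 to 0.44 and Pam from -0.78 to 0.30. For Cre f/+ against Vldlr f/f, Gja5 ran from -0.13 to 0.70, Nr2f1 from -0.0093 to 0.48, Nr2f2 from -0.21 to 0.51 and Pam from -0.68 to 0.40. For Cre f/f against Cre f/+, Pam ran from -0.48 to 0.33. In the same terms Myl7 ran from 1.09 to 1.98 for Cre f/+ against Vldlr f/f and from -1.65 to -0.88 between the Cre genotypes, and Gja5 from 0.55 to 0.69 for si-Vldlr.

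With a replicate block no call among the 9 genes changed in any comparison. Between the Cre genotypes, whose pairing is not established, 2 of the 9 genes had an unadjusted p under 0.05 with the block, in place of 1. With the block and those genotypes fitted alone it was 6. For si-Thbs1, 3 of the 8 genes tested were at that level with the block, in place of 0. The share of all genes at that level with the block was not counted, so these counts have no background to be read against. Over all genes, limma called 3 to 167 across alternatives for si-Vldlr (4 as reported), 1 to 13 for Reelin (2), 1 to 257 for Vldlr OE (1), 0 to 268 for si-Thbs1 (6, and 43 with the block) and 0 to 1 in mouse (0). Same-numbered rat libraries correlated at 0.156 for si-Vldlr, -0.063 for Reelin and 0.409 for si-Thbs1, too few pairs to show pairing. No paired analysis was possible because the Control columns could not be tied to numbered samples, for Vldlr OE against Control. With 2 libraries a group in rat and scattered libraries in mouse, a difference that missed the threshold is not shown to be absent.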

Other observations

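Myh7, the slow myosin heavy chain of ventricular muscle, varied 16.5-fold over the mouse libraries. It was at 968, 656 and 3475 CPM in Cre f/f, at 538, 813 and 2106 CPM in Cre f/+ and at 8892, 1405 and 4634 CPM in Vldlr f/f, with a limma adjusted p of 0.997 for Cre f/f and 0.999 for Cre f/+ against Vldlr f/f. The calcium pump gene Atp2a2 was at 2897, 5615 and 6648 CPM in Cre f/f, at 2356, 6153 and 3922 CPM in Cre f/+ and at 6840, 2647 and 5864 CPM in Vldlr f/f. Its low libraries (replicate 1 of both Cre genotypes and replicate 2 of Vldlr f/f) were also the lowest of their genotypes in Pam.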
